A study of Mus musculus with 3 samples.

Results

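The cells described here are natural killer (NK) barcodes of mouse spleen, chosen by a marker gate on raw UMI counts. A UMI is a molecular tag that counts 1 captured RNA molecule. Barcodes entered with 300 genes or more, 500 UMIs or more and a mitochondrial share of no more than 10%. The gate then required UMIs of at least 2 of Ncr1, Klrb1c, Klre1, Eomes and Gzma, at least 1 UMI of Nkg7, and none of Cd3e, Cd79a or Cd8b1. It held 1374 of 49499 kept barcodes, with 404 of 15864 in the MASH-Phe-free library, 530 of 17651 in the MASH library and 440 of 15984 in the Chow library.

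NK cells are innate lymphocytes that kill stressed or transformed cells by releasing perforin and granzymes and that secrete interferon-gamma and chemokines. In the mouse spleen they mature from Cd27-bearing cells, rich in Il7r and Tcf7, to cells that carry Itgam (CD11b), Klrg1 and Cx3cr1, under transcription factors that include Tbx21, Eomes and Zeb2. Receptors for MHC class I set their threshold of activation, and type I interferon and interleukins 12, 15 and 18 raise their killing and their cytokine output.

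Each group was 1 library of spleen cells, made with a droplet kit that reads the 5′ end of transcripts, so no value below has a replicate and no test between groups was possible. The groups are named MASH-Phe-free, MASH and Chow, after steatohepatitis and, by the series title, phenylalanine. The series text describes C3H mice given a high-fat and then a methionine- and choline-deficient diet, or a control diet, and bearing subcutaneous HCA-1 hepatoma tumours, but it closes with RNA from those tumours. The strain, diet, tumour status, age and number of the animals behind each spleen library, and whether animals were pooled, are not given in the labels, so diet, animal and library cannot be told apart.

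Levels are UMIs summed over the gated barcodes of a library scaled to a sum of 1000000 UMIs (CPM). Ratios carry exact 95% intervals from the UMI counts, which cover counting error only. A gene is called higher or lower past 1.5-fold on log2(CPM + 10), a scale that understates the change of low genes. The MASH library enters both comparisons, MASH-Phe-free over MASH and MASH over Chow, so a value particular to that library moves both in opposite directions. The libraries held 160115282 UMIs (MASH-Phe-free), 152501471 UMIs (MASH) and 138787602 UMIs (Chow), of which gated barcodes held 3408424 UMIs in MASH-Phe-free, 4720906 in MASH and 3609050 in Chow. The median gated barcode held 6925 UMIs in MASH-Phe-free, 7415 in MASH and 7233 in Chow. Kept barcode sequences shared between libraries numbered 89 for MASH-Phe-free and MASH, 70 for MASH-Phe-free and Chow, and 65 for MASH and Chow. Of these, 1 was a gated barcode in both libraries, MASH-Phe-free and MASH.

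Genes outside the rule were those of NK cells. Ncr1, the activating receptor NKp46 and a gene of the rule, had a UMI in 99.5% of gated barcodes in MASH-Phe-free, 99.1% in MASH and 99.1% in Chow. Its level was 2372 CPM in MASH-Phe-free, 2679 in MASH and 2418 in Chow. Beyond the rule, the genes highest over all other kept barcodes, by the lowest of the 3 libraries, were Klra3, an inhibitory Ly49 receptor, and Klrb1a, a receptor of the NKR-P1 family. Sytl3, a Rab27-binding trafficking gene, Klrc1, which encodes NKG2A, Prf1, which encodes perforin, Klrk1, which encodes NKG2D, and Klrd1, which encodes CD94, followed. Their log2 ratios over the other barcodes were at least 5.75 for Klra3 and 4.68 for Klrd1. Tbx21, the factor T-bet, was at least 4.22 and S1pr5, the receptor that lets NK cells leave tissue, at least 4.28. These ratios describe the gate and are no test of it, and reads of near-identical Ly49 genes may have been split between copies.

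The edge of the gate was thin. Barcodes with 2 of the 5 genes, just inside, numbered 21 in MASH-Phe-free, 13 in MASH and 21 in Chow, and 66.7% in MASH-Phe-free, 69.2% in MASH and 81.0% in Chow of them had a Klrd1 UMI. Barcodes with 1 of the 5 genes that met every other condition, just outside, numbered 14 in MASH-Phe-free, 9 in MASH and 19 in Chow, and 50% in MASH-Phe-free, 22.2% in MASH and 31.6% in Chow had a Klrd1 UMI. Most gated barcodes lay well inside, with 4 or 5 genes detected.

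Markers of other cells were measured beside these. Trdc, the delta constant gene that NK cells can transcribe without rearrangement, stood at 122 CPM in MASH-Phe-free, 118 in MASH and 121 in Chow, against 2.21 CPM in MASH-Phe-free, 3.40 in MASH and 4.63 in Chow for Cd8b1-bearing T barcodes of the same libraries. Trac, the alpha constant gene of rearranged T cells, was at 4.99 CPM in MASH-Phe-free, 8.68 in MASH and 7.48 in Chow for gated barcodes, against 234 CPM in MASH-Phe-free, 283 in MASH and 244 in Chow for the Cd8b1 T barcodes. Of 12 T-cell markers, 11 were detected in MASH-Phe-free, where Cd8a was at 0, and 12 in MASH and in Chow. Their summed level was 435 CPM in MASH-Phe-free, 504 in MASH and 457 in Chow. UMIs of 2 or more of these markers were found in 54.2% of gated barcodes in MASH-Phe-free, 63.8% in MASH and 58.9% in Chow. At the equal depth given below, Trbc1, a beta constant gene, had a UMI in 47.1% in MASH-Phe-free, 49.1% in MASH and 48.9% in Chow. Trbc2, another, had one in 24.6% in MASH-Phe-free, 25.5% in MASH and 22.6% in Chow. Whether these UMIs came from the NK cells was not tested. All basophil and mast markers were at 0 in MASH-Phe-free and Chow, and 1 of the 7 was seen in MASH.

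Red cell and neutrophil RNA differed between libraries. UMIs of 2 or more erythroid markers were found in 14.1% of gated barcodes in MASH-Phe-free, 42.3% in MASH and 5.23% in Chow, with all 11 markers detected in MASH-Phe-free and MASH and 8 in Chow (Hba-a2, Alas2 and Slc4a1 at 0). Their summed level was 622 CPM in MASH-Phe-free, 1587 in MASH and 205 in Chow. UMIs of 2 or more of 10 neutrophil markers, all detected in each library, were found in 19.1% in MASH-Phe-free, 2.26% in MASH and 18.6% in Chow, at a summed level of 3451 CPM in MASH-Phe-free, 2069 in MASH and 2054 in Chow. These sums rest on few barcodes, since the 5 barcodes with the most held 96.6% in MASH-Phe-free, 98.8% in MASH and 94.4% in Chow of the neutrophil UMIs, and 68.0% in MASH-Phe-free, 81.0% in MASH and 44.1% in Chow of the erythroid UMIs. At an equal depth of 4364 UMIs per barcode, the haemoglobin gene Hbb-bs had a UMI in 10.8% of gated barcodes in MASH-Phe-free, 39.5% in MASH and 2.98% in Chow. Its shares in Cd8b1 T barcodes were alike, at 10.6% in MASH-Phe-free, 32.1% in MASH and 3.10% in Chow, and so were those in B barcodes, at 11.9% in MASH-Phe-free, 34.4% in MASH and 4.20% in Chow. The Hbb-bs shares were thus alike in gates that should lack the gene, and the source of these UMIs was not tested. Monocyte and macrophage markers, 2 or more of them, were in 38.4% of gated barcodes in MASH-Phe-free, 40.4% in MASH and 48.0% in Chow. Ly6c2, among these markers, had a UMI in 31.3% in MASH-Phe-free, 31.8% in MASH and 46.2% in Chow at that depth. A setting used below leaves out barcodes on such markers, and whether they came from the NK cells was not tested.

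NK barcodes made up 2.55% of kept barcodes in MASH-Phe-free (exact binomial 95% interval 2.31 to 2.80), 3.003% in MASH (2.76 to 3.27) and 2.75% in Chow (2.50 to 3.02). The MASH-Phe-free share was 0.848 times the MASH share (0.746 to 0.964), and the MASH share 1.09 times the Chow share (0.963 to 1.24). The first ratio turned to 1.02 when barcodes with erythroid or neutrophil markers were left out of the total. It turned to 1.11 without barcodes carrying 2 markers of another class, here and below B-cell, neutrophil, monocyte and macrophage, or erythroid. No order of NK abundance can therefore be read from these libraries.

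Genes of mature NK cells had their highest level in MASH as a group. Of 25 measured genes of mature NK cells, 23 were lower in MASH-Phe-free than in MASH and 5 of them passed 1.5-fold, against 0.546% of the 10984 genes with at least 20 UMIs that were lower past that fold. None was higher past it, against 0.583% of those genes. The list's median log2 ratio was -0.26, against -0.01 over all those genes. Set against Chow, 19 of 25 were higher in MASH and 6 passed the fold upward, against 1.27% of 11098 genes, with a median of 0.22 against -0.04 over all genes, and none passed downward, against 1.44%. The 5 in the first comparison were Klrg1, Cma1, Prf1, Cx3cr1 and Irf8. The 6 in the second were those and Lgals1, which encodes a galectin, and the MASH library that both comparisons share stands in every one of these ratios.

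Klrg1, an inhibitory receptor for cadherins that marks terminally mature NK cells, stood at 150 CPM in MASH-Phe-free, 306 CPM in MASH and 168 CPM in Chow. The MASH-Phe-free level was 0.490 times the MASH level (0.442 to 0.542), and the MASH level 1.83 times the Chow level (1.66 to 2.01). MASH was the high library and the other two lay close together.

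Cma1, the mast cell protease that mouse NK cells also transcribe, was at 239 CPM in MASH-Phe-free, 483 in MASH and 276 in Chow. Its ratio was 0.496 (0.457 to 0.537) for MASH-Phe-free over MASH and 1.75 (1.62 to 1.88) for MASH over Chow. Cma1 was at most 1.40 CPM in the other kept barcodes of each library, and the defining mast markers were at or near 0 as given above.

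Prf1, which forms the pores through which granzymes enter the target cell, was at 785 CPM in MASH-Phe-free, 1260 in MASH and 779 in Chow, with ratios of 0.623 (0.595 to 0.652) for MASH-Phe-free over MASH and 1.62 (1.55 to 1.69) for MASH over Chow. Irf8, an interferon regulatory factor needed for the expansion of NK cells in viral infection, was at 287 CPM in MASH-Phe-free, 502 in MASH and 241 in Chow, with ratios of 0.571 (0.530 to 0.616) for MASH-Phe-free over MASH and 2.09 (1.93 to 2.26) for MASH over Chow. Both genes again had their highest level in MASH, although the Prf1 log2 ratio of MASH-Phe-free over MASH, -0.68, was -0.56 from the mean of barcode CPM and without barcodes carrying 2 markers of another class, short of the fold. Irf8 is also a B-cell gene, and in B barcodes it was at 308 CPM in MASH-Phe-free, 312 in MASH and 363 in Chow, without that peak.

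Cx3cr1, the fractalkine receptor of patrolling and late NK cells, was low throughout, at 14.4 CPM in MASH-Phe-free, 55.1 in MASH and 7.76 in Chow. A UMI of it was seen in 32 of 404 gated barcodes in MASH-Phe-free, 88 of 530 in MASH and 21 of 440 in Chow, and no MASH barcode gave more than 12 of the 260 UMIs. The MASH-Phe-free level was 0.261 times the MASH level (0.188 to 0.355), and the MASH level 7.10 times the Chow level (4.80 to 10.9). The second log2 ratio was 1.87, and 1.03 among the 118 MASH and 112 Chow barcodes without any T-cell-receptor, Cd3d or Cd3g UMI.

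**Figure D1:**
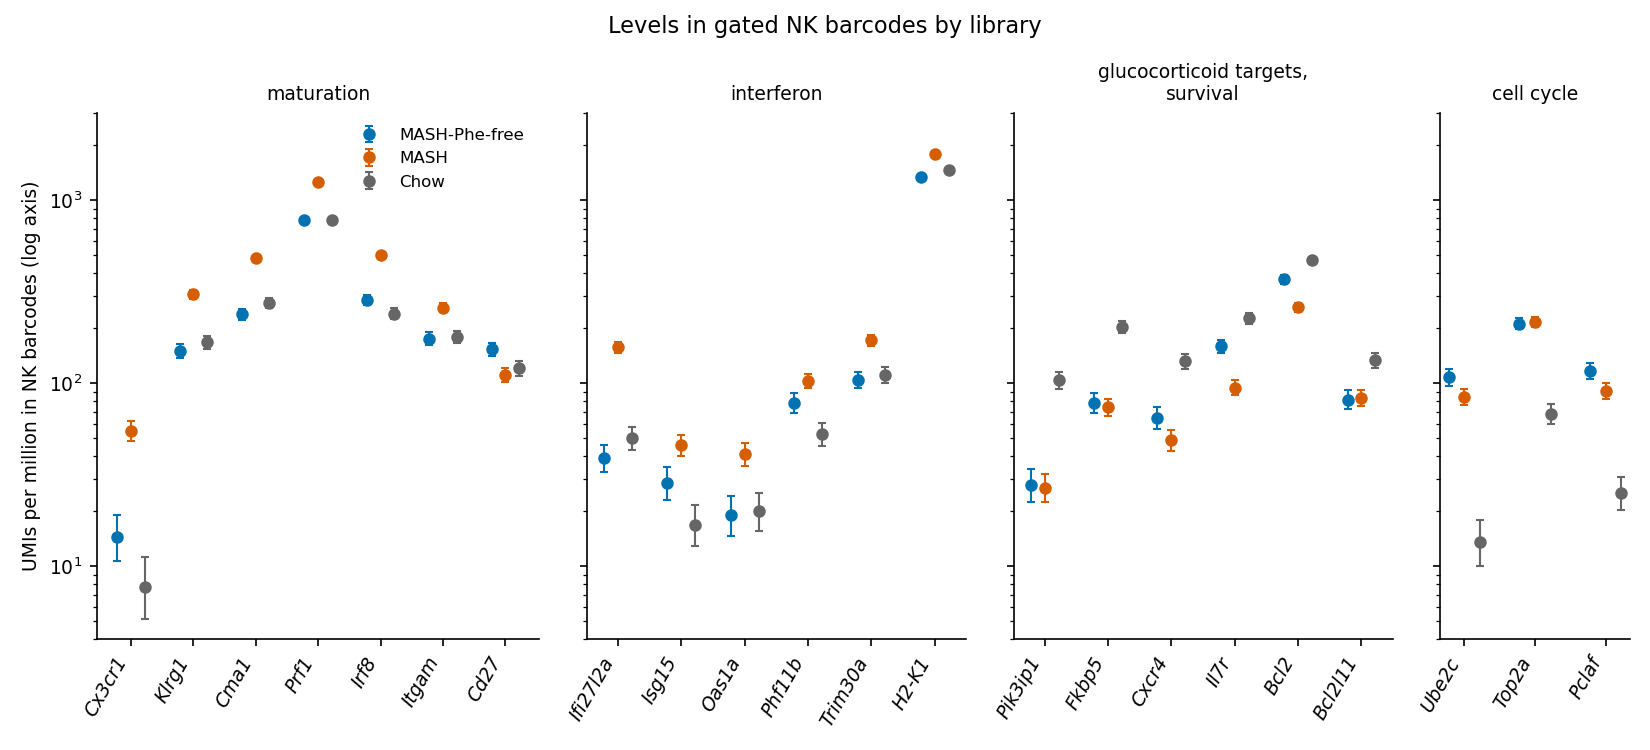
Levels of named genes in gated NK barcodes, in CPM on a log axis, with 1 point per library (MASH-Phe-free, MASH, Chow from left to right for each gene) and exact Poisson 95% intervals that cover counting error only. The maturation panel shows Klrg1, Cma1, Prf1, Irf8 and Cx3cr1 highest in MASH, and the glucocorticoid and survival panel shows Fkbp5, Pik3ip1 and Bcl2 highest in Chow.

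Itgam, the CD11b integrin that marks mature NK cells, was at 175 CPM in MASH-Phe-free, 259 in MASH and 180 in Chow, and did not pass the fold in either comparison (log2 ratios -0.54 and 0.50). Tbx21, the factor that drives maturation, had 349 CPM in MASH-Phe-free, 449 in MASH and 376 in Chow, and Zeb2, which acts after it, 646 CPM in MASH-Phe-free, 775 in MASH and 756 in Chow. Klf2, which keeps NK cells quiescent, had 1121 CPM in MASH-Phe-free, 1285 in MASH and 1101 in Chow. S100a6, a calcium-binding protein, ran the other way with 518 CPM in MASH-Phe-free, 342 in MASH and 356 in Chow.

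Genes of immature NK cells lay on the other side in MASH-Phe-free over MASH, and close to all genes in MASH over Chow. Of 19 measured, 15 were higher in MASH-Phe-free than in MASH, against 5190 of all 10984 genes, at a median log2 ratio of 0.16. Il7r alone passed the fold upward, against 0.583% of all genes. Relative to Chow, 12 of 19 were lower in MASH, against 6439 of all 11098 genes. The list's median of -0.11 lay between the quartiles of all genes, -0.17 and 0.09. Il7r and Gpr183 passed the fold downward, against 1.44% of all genes, and Xcl1 upward, against 1.27%. The medians moved with the barcodes kept: they were 0.40 for MASH-Phe-free over MASH and -0.28 for MASH over Chow without barcodes carrying 2 erythroid markers, 0.48 and -0.098 without T-cell-receptor, Cd3d or Cd3g UMIs, and 0.35 and -0.44 without 2 markers of another class. Among barcodes with a Cd27 UMI they were 0.0063 and -0.053. Il7r, the interleukin 7 receptor of immature NK and innate lymphoid cells, was at 159 CPM in MASH-Phe-free, 94.5 in MASH and 226 in Chow, with ratios of 1.68 (1.48 to 1.91) for MASH-Phe-free over MASH and 0.418 (0.371 to 0.470) for MASH over Chow. Cd27, the TNF-family receptor that defines the early stage, was at 153 CPM in MASH-Phe-free, 111 in MASH and 121 in Chow, with ratios of 1.37 (1.22 to 1.55) for MASH-Phe-free over MASH and 0.920 (0.809 to 1.05) for MASH over Chow. Without 2 markers of another class the Il7r log2 ratio of MASH-Phe-free over MASH, 0.69, was 0.46. MASH was the lowest library for both genes, although the interval of Cd27 in MASH over Chow includes 1. Lef1, a factor of the early stage, was at 157 CPM in MASH-Phe-free, 127 in MASH and 162 in Chow, and Slamf6, a receptor shared with early T cells, at 134 CPM in MASH-Phe-free, 97.4 in MASH and 148 in Chow.

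Maturation classes, made from the same Klrg1 and Cd27 UMIs as the levels above, are a recount of them and no separate support. They were counted per barcode at the equal depth of 4364 UMIs, and their intervals cover the counting of barcodes only. That depth left 342 barcodes in MASH-Phe-free, 491 in MASH and 403 in Chow, and set aside 62 shallower ones in MASH-Phe-free, 39 in MASH and 37 in Chow. Barcodes with a Klrg1 but no Cd27 UMI were 24.0% in MASH-Phe-free (19.5 to 28.9), 42.0% in MASH (37.5 to 46.5) and 26.8% in Chow (22.5 to 31.4). The MASH-Phe-free share was 0.571 times the MASH share (0.461 to 0.709), and the MASH share 1.57 times the Chow share (1.29 to 1.90). Barcodes with Cd27 but no Klrg1 were 34.2% in MASH-Phe-free, 19.96% in MASH and 27.5% in Chow, with share ratios of 1.71 (1.36 to 2.16) for MASH-Phe-free over MASH and 0.725 (0.571 to 0.919) for MASH over Chow. Without thinning, the shares with Klrg1 alone were 24.8% in MASH-Phe-free, 37.5% in MASH and 29.5% in Chow, and those with Cd27 alone 35.1% in MASH-Phe-free, 24.7% in MASH and 31.1% in Chow. In B barcodes, which should lack Klrg1, a UMI of it was seen in 0 of 1000 thinned barcodes in MASH-Phe-free, 1 of 1000 in MASH and 0 of 1000 in Chow, where a count of 0 allows a share of up to 0.300%. Barcodes with neither gene were 34.8% in MASH-Phe-free, 28.3% in MASH and 38.0% in Chow, so the classes are ranges of detection and leave many barcodes unplaced.

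**Figure D2:**
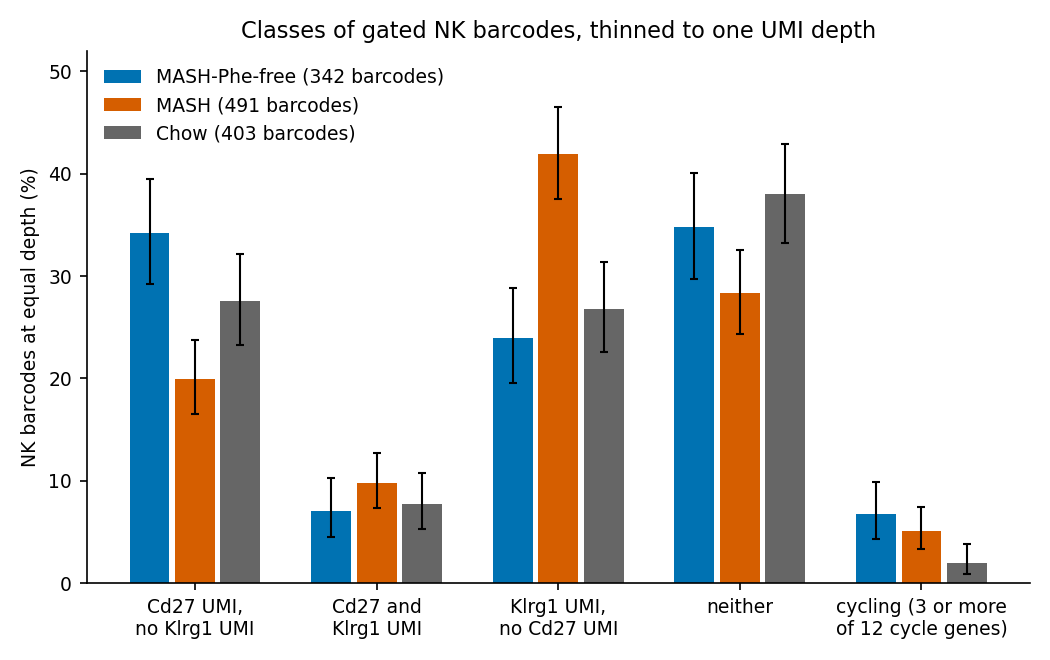
Share of gated NK barcodes, in percent, with a UMI of Cd27 alone, of both genes, of Klrg1 alone or of neither, and share called cycling, after thinning each barcode to 4364 UMIs. Bars are libraries (MASH-Phe-free, MASH, Chow from left to right) and lines exact binomial 95% intervals; Klrg1 alone is 24.0% in MASH-Phe-free, 42.0% in MASH and 26.8% in Chow, and cycling 6.73% in MASH-Phe-free, 5.09% in MASH and 1.99% in Chow.

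Within stages the medians kept their signs, at sizes that differed for MASH over Chow. Among barcodes with a Cd27 UMI, 196 in MASH-Phe-free, 236 in MASH and 193 in Chow, the mature list had a median log2 ratio of -0.26 for MASH-Phe-free over MASH and 0.14 for MASH over Chow. Among barcodes with no Cd27 UMI and one of Itgam, Klrg1 or Cma1, 169 in MASH-Phe-free, 271 in MASH and 211 in Chow, the medians were -0.21 and 0.28. The 3 genes that select the later barcodes are members of the list, and neither stage was matched for depth between libraries. Prf1 in those later barcodes was at 1203 CPM in MASH-Phe-free, 1808 in MASH and 1073 in Chow. Irf8 there was at 407 CPM in MASH-Phe-free, 724 in MASH and 358 in Chow. Erythroid RNA was highest in MASH as well, and its part in the mature list's values was not tested. Without the barcodes carrying 2 erythroid markers the mature list's medians were -0.32 for MASH-Phe-free over MASH and 0.28 for MASH over Chow. They were -0.37 and 0.28 without T-cell-receptor, Cd3d or Cd3g UMIs.

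Killing and receptor genes had small medians as groups. Of 23 granule and killing genes, 9 were higher in MASH-Phe-free than in MASH (median log2 ratio -0.06), against 5190 of all 10984 genes. Prf1 passed the fold downward, against 0.546% of all genes, and Gzmm, a granzyme, upward, against 0.583%. Without T-cell-receptor, Cd3d or Cd3g UMIs that median was -0.32 and the Gzmm log2 ratio, 0.60, was 0.029. Against Chow, 14 of 23 were higher in MASH (median 0.05), beside 4659 of all 11098 genes. Prf1 alone passed, upward, against 1.27% of all genes. Gzma, the granzyme used in the rule, stood at 6124 CPM in MASH-Phe-free, 8323 in MASH and 6082 in Chow, as a description only. It is also a member of the granule list, so that list's counts and medians include a gene that chose the barcodes. Gzmb, the granzyme that activates caspases, was at 337 CPM in MASH-Phe-free, 401 in MASH and 318 in Chow, Cst7, a cystatin that inhibits granzyme-processing cathepsins, at 137 CPM in MASH-Phe-free, 203 in MASH and 139 in Chow, and Fasl, the Fas ligand, at 118 CPM in MASH-Phe-free, 180 in MASH and 143 in Chow. Gzmb, Cst7 and Fasl each had their highest level in MASH, and none of them passed the fold. Their log2 ratios for MASH over Chow were 0.32, 0.52 and 0.31.

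Of 19 activating receptors, 15 were lower in MASH-Phe-free than in MASH (median -0.16), against 5794 of all 10984 genes. None passed the fold in either comparison. In MASH over Chow the median was 0.00. Klre1, a gene of the rule, is a member of this list, so its counts and medians include a gene that chose the barcodes. Of 18 inhibitory receptors, 14 were lower in MASH-Phe-free than in MASH (median -0.11), against 5794 of all 10984 genes. In MASH over Chow 13 were lower (median -0.12), against 6439 of all 11098 genes. Klrg1 alone passed the fold, downward in the first comparison (against 0.546% of all genes) and upward in the second (against 1.27%). Tigit, which binds nectin-family ligands, was at 56.3 CPM in MASH-Phe-free, 51.7 in MASH and 70.9 in Chow. Klra3, at 728 CPM in MASH-Phe-free, 889 in MASH and 879 in Chow, shares near-identical sequence with other Ly49 genes and is uncertain. Ptpn6, the SHP-1 phosphatase through which inhibitory receptors signal, was at 130 CPM in MASH-Phe-free, 128 in MASH and 75.6 in Chow, with a ratio of 1.69 (1.46 to 1.96) for MASH over Chow and 1.02 (0.898 to 1.15) for MASH-Phe-free over MASH.

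Type I interferon response genes formed the second group with a broad difference. Promoters of part of the list hold letters that match a short form of the interferon-stimulated response element. The motif, 2 copies of GAAA with 2 bases of any kind between them, was searched on both strands, overlapping matches counted, in the 250 bases before each start in RefSeq's promoter table (build GRCm38.p6). It occurred in 978 of 32851 promoter windows (2.98%), and in at least 1 window of 17 of the 36 interferon-list genes matched by symbol, or 47.2%, against 3.46% of all 27025 genes. The last 100 bases before the start are printed for 4 of the named genes, each 5′ to 3′ on the gene's strand with matches in capitals, at chr4:156200819-156200918 for Isg15, chr14:59341331-59341430 for Phf11b, chr5:120907526-120907625 for Oas1a and chr7:104465194-104465293 for Trim30a, all on the minus strand.
Isg15: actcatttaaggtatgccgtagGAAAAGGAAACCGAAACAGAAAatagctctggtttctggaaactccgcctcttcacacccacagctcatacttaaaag
Phf11b: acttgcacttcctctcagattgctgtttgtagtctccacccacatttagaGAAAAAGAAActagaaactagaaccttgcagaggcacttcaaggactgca
Oas1a: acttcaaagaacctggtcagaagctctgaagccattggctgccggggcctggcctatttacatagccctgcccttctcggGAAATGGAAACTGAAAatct
Trim30a: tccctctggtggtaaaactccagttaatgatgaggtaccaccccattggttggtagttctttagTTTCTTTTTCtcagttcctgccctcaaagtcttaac

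Isg15 holds 3 overlapping matches and Oas1a 2, Phf11b holds 1, and Trim30a holds 1, in reverse orientation and in 1 of its 2 windows. A match is a description of letters and not evidence of binding. The list was put together as interferon response genes, so its high share of matches is no test.

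Of 43 measured interferon genes, 39 were lower in MASH-Phe-free than in MASH, 9 of them past the fold against 0.546% of all genes, at a median log2 ratio of -0.36. Of 44 measured in MASH over Chow, 35 were higher, 11 of them past the fold against 1.27% of all genes, at a median of 0.38. Isg15, a ubiquitin-like modifier, was at 28.5 CPM in MASH-Phe-free, 45.8 in MASH and 16.9 in Chow, with ratios of 0.622 (0.484 to 0.794) for MASH-Phe-free over MASH and 2.71 (2.03 to 3.66) for MASH over Chow. Oas1a, which makes the oligoadenylates that activate RNase L, was at 19.1 CPM in MASH-Phe-free, 40.9 in MASH and 19.9 in Chow, with ratios of 0.466 (0.347 to 0.621) for MASH-Phe-free over MASH and 2.05 (1.56 to 2.73) for MASH over Chow. MASH was the high library for both, though the Isg15 log2 ratio of MASH-Phe-free over MASH, -0.54, was 0.21 without barcodes carrying 2 markers of another class, and that of MASH over Chow, 1.05, was 0.43. For Oas1a, -0.81 for MASH-Phe-free over MASH was -0.24 and 0.76 for MASH over Chow was 0.49 in that setting, both short of the fold.

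Trim30a, a TRIM-family protein that dampens inflammatory signalling, was at 104 CPM in MASH-Phe-free, 172 in MASH and 111 in Chow, with ratios of 0.606 (0.533 to 0.687) for MASH-Phe-free over MASH and 1.56 (1.38 to 1.76) for MASH over Chow. Its log2 ratios lay near the fold, at -0.67 and 0.59, and without T-cell-receptor, Cd3d or Cd3g UMIs they were -0.57 and 0.26. Phf11b, a member of an interferon-induced family, was at 78.0 CPM in MASH-Phe-free, 103 in MASH and 52.9 in Chow, with ratios of 0.757 (0.649 to 0.880) for MASH-Phe-free over MASH and 1.95 (1.65 to 2.32) for MASH over Chow. Ifi27l2a, a small interferon-induced membrane protein, was at 39.0 CPM in MASH-Phe-free, 157 in MASH and 50.2 in Chow, with ratios of 0.248 (0.205 to 0.299) for MASH-Phe-free over MASH and 3.14 (2.66 to 3.71) for MASH over Chow. Its log2 ratio of MASH over Chow, 1.48, was 0.17 among the barcodes without a T-cell-receptor, Cd3d or Cd3g UMI, and 1 barcode gave 86 of its 743 UMIs in MASH.

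Several of these genes were less abundant in NK barcodes than elsewhere. Over all other kept barcodes, Ifi27l2a stood at 517 CPM in MASH-Phe-free, 801 in MASH and 375 in Chow, and Isg15 at 86.7 CPM in MASH-Phe-free, 210 in MASH and 50.6 in Chow. Free RNA from those cells could reach NK droplets, and its part in the NK values was not tested. In the same other barcodes Trim30a was at 112 CPM in MASH-Phe-free, 165 in MASH and 114 in Chow, and Phf11b at 42.3 CPM in MASH-Phe-free, 66.8 in MASH and 50.4 in Chow, so their NK levels were close to or above those. Within stages the list had medians of -0.34 and 0.41 in Cd27-detected barcodes and -0.43 and 0.42 in the later ones, for MASH-Phe-free over MASH and MASH over Chow. Without barcodes carrying 2 erythroid markers they were -0.28 and 0.34. In the setting without 2 markers of another class, which also leaves those out, they were -0.23 and 0.46.

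MHC class I genes showed a small but even difference. Of 17 such genes, 15 were lower in MASH-Phe-free than in MASH (median -0.20) and 17 were higher in MASH than in Chow (median 0.24), none past the fold. H2-K1, a classical class I heavy chain, was at 1341 CPM in MASH-Phe-free, 1795 in MASH and 1467 in Chow, with ratios of 0.747 (0.720 to 0.774) for MASH-Phe-free over MASH and 1.22 (1.18 to 1.27) for MASH over Chow. Psmb9, an immunoproteasome subunit, was at 226 CPM in MASH-Phe-free, 257 in MASH and 187 in Chow, and Calr, the chaperone of the peptide-loading complex, at 197 CPM in MASH-Phe-free, 257 in MASH and 175 in Chow. H2 genes have near-identical copies, so single H2 values are uncertain. The interferon-gamma list of 25 genes had medians of -0.16 and 0.12, and Gbp3, a GTPase of cell-autonomous defence, was at 38.7 CPM in MASH-Phe-free, 44.3 in MASH and 29.1 in Chow.

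**Figure D3:**
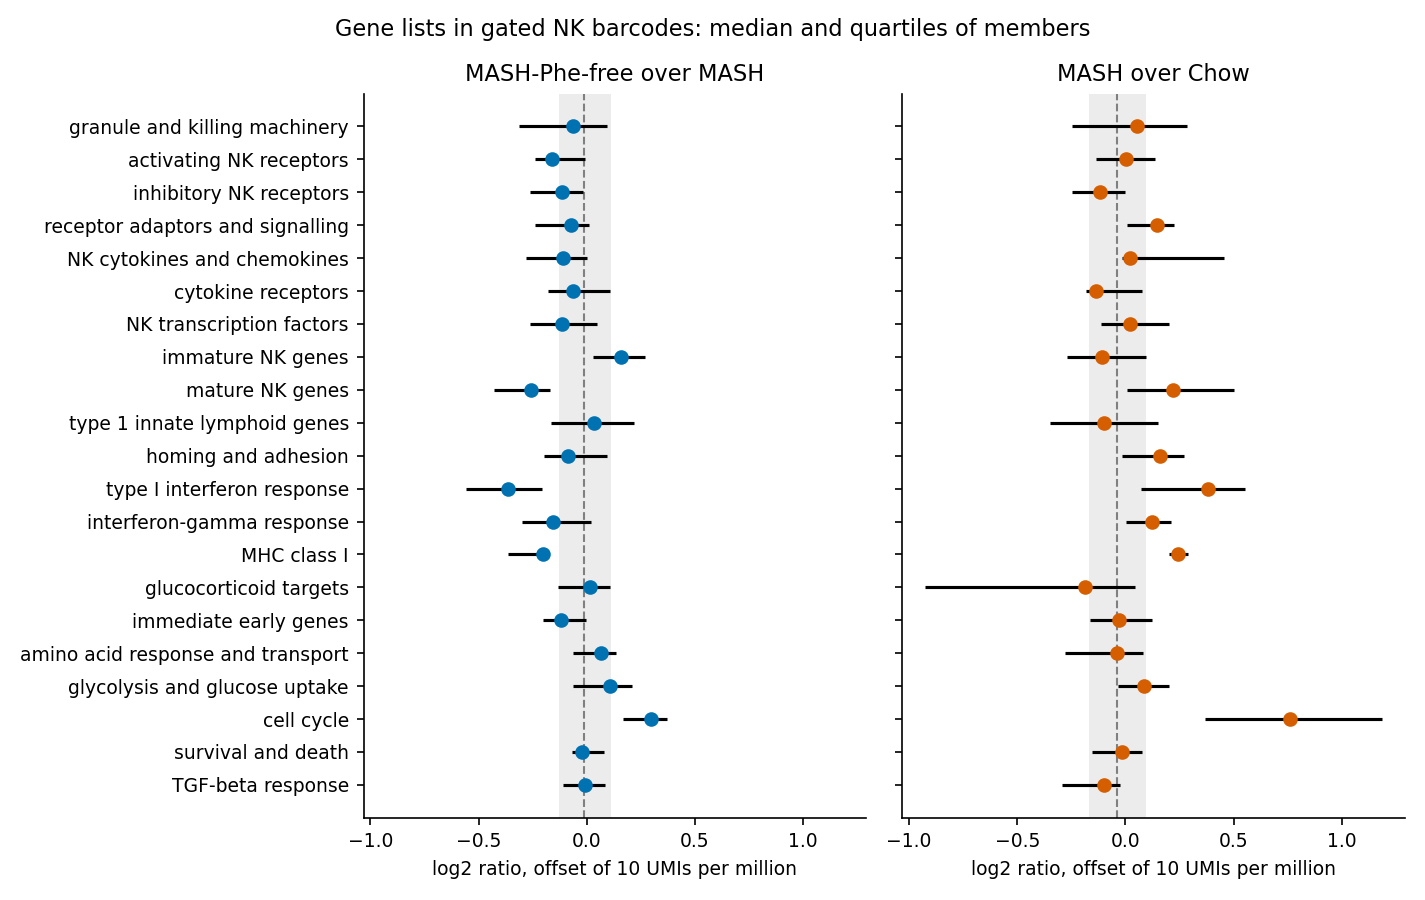
Median log2 ratio (point) and quartiles (line) of each gene list in gated NK barcodes, for MASH-Phe-free over MASH on the left and MASH over Chow on the right; the dashed line and grey band are the median and quartiles of all genes with at least 20 UMIs. The mature and type I interferon lists lie at -0.26 and -0.36 on the left and at 0.22 and 0.38 on the right.

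Genes that glucocorticoids induce separated Chow from both other libraries. In MASH over Chow, 7 of 22 passed the fold downward (Fkbp5, Tsc22d3, Ddit4, Pik3ip1, Txnip, Cxcr4 and Il7r), against 1.44% of all genes, at a median of -0.19, and none upward; without erythroid barcodes the median was -0.092, and -0.50 without T-cell-receptor, Cd3d or Cd3g UMIs. For MASH-Phe-free over MASH the median of 24 was 0.02 with 13 higher and 11 lower. Il7r and the metallothioneins Mt1 and Mt2 passed upward, against 0.583% of all genes, and 35 of the 36 Mt1 UMIs in MASH-Phe-free came from 1 barcode. Fkbp5, a co-chaperone of the glucocorticoid receptor, was at 78.0 CPM in MASH-Phe-free, 74.1 in MASH and 203 in Chow, with ratios of 1.05 (0.894 to 1.24) for MASH-Phe-free over MASH and 0.366 (0.321 to 0.416) for MASH over Chow. Pik3ip1, which inhibits PI3-kinase, was at 27.9 CPM in MASH-Phe-free, 26.9 in MASH and 104 in Chow, with ratios of 1.04 (0.786 to 1.36) for MASH-Phe-free over MASH and 0.259 (0.210 to 0.317) for MASH over Chow. Cxcr4, the receptor that holds NK cells in bone marrow, was at 64.8 CPM in MASH-Phe-free, 48.7 in MASH and 132 in Chow, with a ratio of 0.370 (0.315 to 0.434) for MASH over Chow. For all 3 genes Chow was the high library.

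Survival genes followed Chow in part. Of 23 measured, Bcl2, Bcl2l11, Bcl2a1b and Bbc3 passed the fold downward in MASH over Chow, against 1.44% of all genes, and the list's median was -0.01; for MASH-Phe-free over MASH it was -0.02 and none passed. Bcl2, which keeps lymphocytes alive, was at 369 CPM in MASH-Phe-free, 260 in MASH and 469 in Chow, with ratios of 1.42 (1.31 to 1.54) for MASH-Phe-free over MASH and 0.554 (0.514 to 0.596) for MASH over Chow. Bcl2l11, which encodes the pro-death protein BIM, was at 81.3 CPM in MASH-Phe-free, 83.5 in MASH and 133 in Chow, and Bbc3, which encodes PUMA, at 51.6 CPM in MASH-Phe-free, 45.5 in MASH and 76.2 in Chow. Without T-cell-receptor, Cd3d or Cd3g UMIs the log2 ratios of MASH over Chow were -0.38 for Bcl2l11 and -0.55 for Bbc3, short of the fold. Without cycling barcodes they were -0.52 and -0.58, also short of it. Bcl2l11 was further at -0.56 without the deepest 5% of barcodes, and Bbc3 at -0.48 from the mean of barcode CPM. Genes of opposite function were both highest in Chow.

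The largest list median belonged to the cell cycle. All 30 measured cycle genes were higher in MASH than in Chow, 20 past the fold against 1.27% of all genes, at a median log2 ratio of 0.76; in MASH-Phe-free over MASH 28 were higher, none past the fold, at a median of 0.30. The median for MASH over Chow was 0.23 without T-cell-receptor, Cd3d or Cd3g UMIs and 0.68 without erythroid barcodes. Top2a, the topoisomerase of dividing cells, was at 212 CPM in MASH-Phe-free, 216 in MASH and 67.9 in Chow, with ratios of 0.981 (0.890 to 1.08) for MASH-Phe-free over MASH and 3.19 (2.77 to 3.68) for MASH over Chow. Ube2c, the ubiquitin-conjugating enzyme of mitotic exit, was at 108 CPM in MASH-Phe-free, 84.5 in MASH and 13.6 in Chow, with ratios of 1.27 (1.10 to 1.47) for MASH-Phe-free over MASH and 6.23 (4.62 to 8.56) for MASH over Chow. The replication histones H1f5, H2ac4, H2ac8 and H3c6 and the replication factor Pclaf were also among the 8 genes highest in MASH over Chow; H1f5 was at 216 CPM in MASH-Phe-free, 179 in MASH and 39.1 in Chow. Without the deepest 5% of barcodes the Top2a log2 ratio of MASH over Chow, 1.54, was 0.37. H1f5 fell from 1.95 to 0.52, H2ac4 from 1.88 to 0.24, Pclaf from 1.52 to 0.46 and H3c6 from 1.46 to 0.37. These genes were then short of the fold, while Ube2c and H2ac8 stayed past it. Histone genes have close copies, and their single values are uncertain.

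Few barcodes held UMIs of several cycle genes. UMIs of at least 3 of 12 cycle genes were found in 35 of 404 barcodes in MASH-Phe-free, 35 of 530 in MASH and 11 of 440 in Chow. These held 96.2% in MASH-Phe-free, 93.7% in MASH and 81.8% in Chow of the 12 genes' UMIs. The same genes made the call, so a high share follows from it in part. After thinning, the share was 6.73% in MASH-Phe-free (4.31 to 9.92), 5.09% in MASH (3.32 to 7.42) and 1.99% in Chow (0.861 to 3.87), with share ratios of 1.32 (0.763 to 2.29) for MASH-Phe-free over MASH and 2.56 (1.17 to 5.62) for MASH over Chow. Chow was the low library, and the interval of MASH-Phe-free over MASH includes 1.

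Cycling barcodes, called without thinning, a rule that deep barcodes meet more readily, were deep and had lower levels of NK genes per UMI. Their median was 18595 UMIs in MASH-Phe-free, 20609 in MASH and 22389 in Chow, and the median of barcodes not called cycling was 6681 UMIs in MASH-Phe-free, 7190 in MASH and 7161 in Chow. Of the deepest 5% of barcodes, 18 of 21 were cycling in MASH-Phe-free, 19 of 27 in MASH and 6 of 22 in Chow. A median of 7 of 8 NK genes outside the rule was detected in them, as in the shallower others. Ncr1 was at 1546 CPM in MASH-Phe-free, 1902 in MASH and 1304 in Chow for cycling barcodes, against 2593 CPM in MASH-Phe-free, 2822 in MASH and 2487 in Chow for the rest. Prf1 was at 406 CPM in MASH-Phe-free, 561 in MASH and 284 in Chow for cycling barcodes, against 887 CPM in MASH-Phe-free, 1389 in MASH and 810.2 in Chow for the rest. UMIs of 2 or more erythroid markers were found in 8 of 35 cycling barcodes in MASH-Phe-free, 19 of 35 in MASH and 1 of 11 in Chow. The summed erythroid level was 1127 CPM in MASH-Phe-free, 362 in MASH and 1517 in Chow for cycling barcodes, against 487 CPM in MASH-Phe-free, 1812 in MASH and 124 in Chow for the rest, and its part in the cycling values was not tested. Doublets with another dividing cell were not tested. Without the cycling barcodes, 15 cycle genes were still measured and the list's median was -0.01 in MASH over Chow.

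At equal depth the cycling shares were close in barcodes with and without a Cd27 UMI, but they rested on few barcodes, so a difference could be missed. Among thinned barcodes with a Cd27 UMI, 9 of 141 (6.38%) in MASH-Phe-free, 7 of 146 (4.79%) in MASH and 3 of 142 (2.11%) in Chow were cycling. Among those without one, 14 of 201 (6.97%) in MASH-Phe-free, 18 of 345 (5.22%) in MASH and 5 of 261 (1.92%) in Chow were. Without thinning the shares were 12.8% in MASH-Phe-free, 11.9% in MASH and 3.63% in Chow with a Cd27 UMI and 4.81% in MASH-Phe-free, 2.38% in MASH and 1.62% in Chow without. The cell cycle medians within the unthinned stages, 1.15 in Cd27-detected and -0.13 in later barcodes for MASH over Chow, were likewise not matched for depth.

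Cytokines, homing and metabolism showed single genes more than groups. Of 14 cytokine genes in MASH over Chow, Xcl1, Csf2 and Il10 passed the fold upward, against 1.27% of all genes (median 0.02). Xcl1, the chemokine that attracts cross-presenting dendritic cells, was at 122 CPM in MASH-Phe-free, 129 in MASH and 76.8 in Chow, with ratios of 0.945 (0.832 to 1.07) for MASH-Phe-free over MASH and 1.68 (1.45 to 1.94) for MASH over Chow. Its log2 ratio of MASH over Chow, 0.68, was 0.091 without barcodes carrying 2 markers of another class and 0.41 without those carrying 2 erythroid markers. Ifng, the main NK cytokine, was at 50.8 CPM in MASH-Phe-free, 58.9 in MASH and 39.6 in Chow, with ratios of 0.862 (0.709 to 1.05) for MASH-Phe-free over MASH and 1.49 (1.21 to 1.83) for MASH over Chow. Ccl3, a chemokine of activated NK cells, was at 87.1 CPM in MASH-Phe-free, 94.9 in MASH and 69.5 in Chow. Ccl5, the most abundant chemokine here, was at 10321 CPM in MASH-Phe-free, 11618 in MASH and 11567 in Chow.

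Of 26 homing and adhesion genes, the medians were -0.09 for MASH-Phe-free over MASH and 0.16 for MASH over Chow. Cd44, the hyaluronan receptor, was at 119 CPM in MASH-Phe-free, 91.5 in MASH and 144 in Chow, past the fold downward in MASH over Chow with a log2 ratio of -0.60, which was -0.47 without the deepest 5% of barcodes. Ccr2, the receptor for monocyte chemokines, was at 344 CPM in MASH-Phe-free, 267 in MASH and 278 in Chow, with a ratio of 1.29 (1.19 to 1.40) for MASH-Phe-free over MASH.

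Amino acid response and transport genes, listed because the diet label names an amino acid, had medians of 0.07 over 22 genes for MASH-Phe-free over MASH and -0.04 over 23 genes for MASH over Chow, with none past the fold in the first comparison. In the second, Slc16a10 alone passed, downward, against 1.44% of all genes. Slc3a2, the heavy chain of the large neutral amino acid transporter that carries phenylalanine, was at 80.1 CPM in MASH-Phe-free, 71.0 in MASH and 89.8 in Chow, with a ratio of 1.13 (0.958 to 1.33) for MASH-Phe-free over MASH. Its interval includes 1. Slc38a2, a glutamine transporter induced by amino acid shortage, was at 162 CPM in MASH-Phe-free, 184 in MASH and 179 in Chow. The 21 glycolysis genes had medians of 0.11 and 0.08, and Eno1, an enolase, was at 548 CPM in MASH-Phe-free, 446 in MASH and 472 in Chow. Immediate early genes (medians -0.12 and -0.03), TGF-beta response genes (-0.01 and -0.10), type 1 innate lymphoid genes (0.03 and -0.10), cytokine receptors (-0.06 and -0.14) and transcription factors (-0.11 and 0.02) lay between the quartiles of all genes. The type 1 innate lymphoid medians were 0.40 for MASH-Phe-free over MASH and -0.34 for MASH over Chow without barcodes carrying 2 erythroid markers. Receptor adaptors had medians of -0.07 and 0.15.

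Among single genes with at least 50 UMIs, 44 (0.464% of 9473) were higher and 54 (0.570%) lower past the fold in MASH-Phe-free over MASH. In MASH over Chow, 133 (1.39% of 9560) were higher and 125 (1.31%) lower. Without cycling barcodes the 133 became 53, and without the deepest 5% of barcodes the 133 and 125 became 60 and 67. Mmp16, a membrane metalloproteinase, was at 43.7 CPM in MASH-Phe-free, 36.0 in MASH and 135 in Chow, with a ratio of 0.266 (0.222 to 0.317) for MASH over Chow. It was seen in 81 barcodes in MASH-Phe-free, 84 in MASH and 172 in Chow, and stood at 8.83 CPM in MASH-Phe-free, 11.3 in MASH and 9.40 in Chow for Cd8b1 T barcodes.

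Pde5a, a phosphodiesterase that degrades cyclic GMP, was at 12.03 CPM in MASH-Phe-free, 50.2 in MASH and 12.7 in Chow, with ratios of 0.240 (0.168 to 0.335) for MASH-Phe-free over MASH and 3.94 (2.86 to 5.53) for MASH over Chow. It was seen in 31 barcodes in MASH-Phe-free, 95 in MASH and 35 in Chow, and in Cd8b1 T barcodes it stood at 14.3 CPM in MASH-Phe-free, 9.09 in MASH and 12.2 in Chow. Casp4, the inflammatory caspase that senses cytosolic lipopolysaccharide, was at 27.0 CPM in MASH-Phe-free, 55.9 in MASH and 34.4 in Chow, with ratios of 0.483 (0.376 to 0.614) for MASH-Phe-free over MASH and 1.63 (1.31 to 2.03) for MASH over Chow. The NK peak in MASH of Pde5a was thus not seen in the Cd8b1 T barcodes, a difference that could not be tested with 1 library per group. Abca1, the cholesterol exporter, was at 17.3 CPM in MASH-Phe-free, 40.7 in MASH and 54.0 in Chow, with a ratio of 0.426 (0.312 to 0.573) for MASH-Phe-free over MASH. Its log2 ratio, -0.89, was -0.27 without T-cell-receptor, Cd3d or Cd3g UMIs.

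Other extreme genes rested on few barcodes or on genes of other cells. Vcam1, an adhesion molecule of splenic macrophages and stroma, was at 6.16 CPM in MASH-Phe-free, 11.7 in MASH and 91.2 in Chow, where 1 barcode gave 153 of 329 UMIs. Mertk, a receptor for dying cells, was seen in 5 Chow barcodes, 1 of them with 87 of 131 UMIs, and Fmnl2, a formin, in 6, 1 of them with 96 of 123. Mrc1, the macrophage mannose receptor, had 70 of its 145 Chow UMIs in 1 barcode. In MASH-Phe-free, 1 barcode gave 129 of 355 UMIs of Prdx2, a peroxiredoxin of red cells, 258 of 808 of Car2, a carbonic anhydrase, and 60 of 140 of Hmgb3, a chromatin protein of blood precursors. Il1b, a myeloid cytokine, was seen in 9 MASH-Phe-free barcodes, and Ms4a6c, a gene of monocytes, was at 25.5 CPM in MASH-Phe-free, 56.3 in MASH and 65.1 in Chow for NK barcodes against 246 CPM in MASH-Phe-free, 208 in MASH and 179 in Chow for the other barcodes. Ctrb1, a pancreatic protease precursor, was at 0.293 CPM in MASH-Phe-free, 0.212 in MASH and 34.4 in Chow for NK barcodes and 1.005 CPM in MASH-Phe-free, 0.481 in MASH and 31.5 in Chow for the other barcodes, so its Chow level did not separate NK cells from the rest. Nrgn, a calmodulin-binding protein, was at 79.8 CPM in MASH-Phe-free, 42.2 in MASH and 57.9 in Chow and Vamp5, a vesicle fusion protein, at 54.0 CPM in MASH-Phe-free, 30.7 in MASH and 36.3 in Chow. Without cycling barcodes their log2 ratios of MASH-Phe-free over MASH, 0.78 for Nrgn and 0.65 for Vamp5, were 0.40 and 0.39.

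The NK barcodes were set beside Cd8b1 T barcodes, 905 in MASH-Phe-free, 1149 in MASH and 1216 in Chow, and B barcodes, 5069 in MASH-Phe-free, 6250 in MASH and 6320 in Chow. The interferon list differed from all genes in each of the 3 gates. Its medians for MASH-Phe-free over MASH were -0.36 in NK, -0.23 in Cd8b1 T and -0.48 in B barcodes, and for MASH over Chow 0.38, 0.35 and 0.51. The glucocorticoid list was also alike, with medians for MASH over Chow of -0.19, -0.17 and -0.21 in the same gates. The mature NK list had medians of -0.26 in NK, -0.10 in Cd8b1 T and 0.01 in B barcodes for MASH-Phe-free over MASH, and of 0.22, 0.31 and 0.03 for MASH over Chow. Prf1 in Cd8b1 T barcodes was at 143 CPM in MASH-Phe-free, 129 in MASH and 80.0 in Chow, and so did not share the NK order of MASH-Phe-free and MASH. The cell cycle list for MASH over Chow was at 0.76 in NK, -0.16 in Cd8b1 T and 0.43 in B barcodes. These differences between lineages are descriptions, since 1 library per group allows no test of them. Barcodes that met the NK gate except for a Cd3e UMI were few, 14 in MASH-Phe-free, 30 in MASH and 36 in Chow. Their interferon medians were 0.02 for MASH-Phe-free over MASH and 0.14 for MASH over Chow. Their mature NK medians were -0.40 and 0.06.

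**Figure D4:**
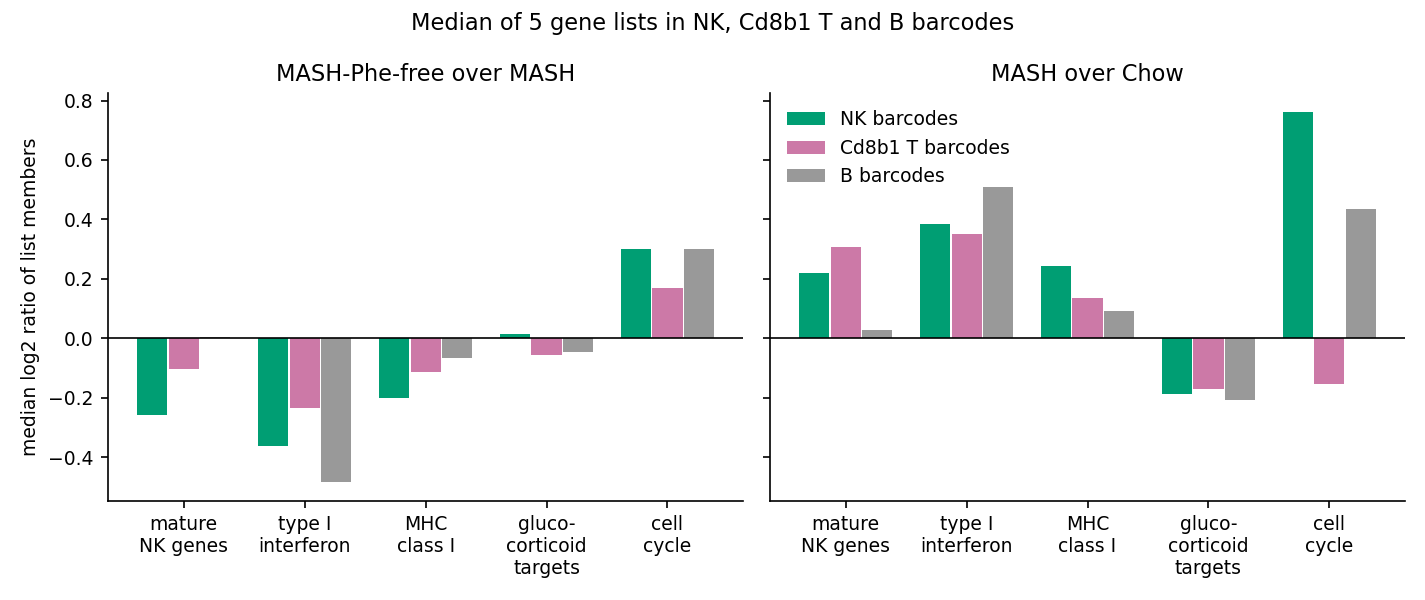
Median log2 ratio of 5 gene lists in NK, Cd8b1 T and B barcodes, for MASH-Phe-free over MASH and for MASH over Chow. The type I interferon list is negative in the first comparison and positive in the second in all 3 gates, while the mature NK list in B barcodes lies near 0.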

How the data were processed

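Per the file headers, the deposited files hold UMI counts as whole numbers, 1 for each gene in each barcode. Per the submitters' processing notes the authors used Cell Ranger 9.0.1, Seurat 5.3.0 and genome GRCm39/mm39; their roles and the annotation release were not given in the sources used here. Other deposited columns hold gene identifiers, symbols and barcodes.

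The members, gene lists and markers were chosen with earlier results of these data known. UMIs of gated barcodes were summed per library with Python 3.11.15, numpy 2.4.6, scipy 1.17.1 and pandas 2.3.3, and drawn with matplotlib 3.10.9. Log2 ratios used an offset of 10 CPM. Intervals at 95% were exact (conditional Poisson for UMI ratios, Clopper-Pearson for shares) or log-binomial for ratios of shares. UMIs of 1 barcode are not independent of each other, so these intervals are too narrow. A list member needed 20 UMIs over both libraries of a comparison, a counted gene 50. Genes of the rule were not taken out of the gene lists. The ratio step was tested on simulated counts.

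Named genes were, per comparison, the 8 highest and 8 lowest among genes of 50 UMIs or more and of 30 CPM or more in one library, with an interval excluding 1 and at least 20% of the level in other barcodes, plus up to 4 members of each list. Other list members named beside them were chosen after their values were seen. No doublet caller was run. The zero counts required by the gate and an alternative without barcodes carrying 2 markers of another class were used instead. That alternative counted B-cell, neutrophil, monocyte and macrophage, and erythroid markers. T-cell, plasma cell and dendritic markers did not count in it. With 1 library per group, n was 1 and no test was made. Printed promoter coordinates are those of RefSeq's table for GRCm38.p6, not of the files' build. The depth of each library is given with the results.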

Additional observations from a re-analysis of the deposited data

How the results depend on the processing

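No paired analysis was possible because each group has 1 library. The NK share ratio of MASH-Phe-free over MASH, 0.848, was 0.971 without T-cell-receptor, Cd3d or Cd3g UMIs (log2 -0.042), 1.11 without barcodes carrying 2 markers of another class (log2 0.15), 1.02 with erythroid and neutrophil barcodes out of the total (log2 0.032) and 1.06 with erythroid barcodes out of both counts (log2 0.083). That of MASH over Chow, 1.09, was 0.954 (log2 -0.068) and 0.900 (log2 -0.15) in the first and last of these settings. Leaving erythroid barcodes out, or cycling barcodes, was chosen after seeing the data. Genes past 1.5-fold in MASH-Phe-free over MASH, 44 higher and 54 lower, were 231 and 219 with an offset of 1 CPM, 14 and 19 with 30 CPM, 20 and 34 at a minimum of 200 UMIs, 245 and 174 without T-cell-receptor UMIs, and 85 and 107 without 2 markers of another class. The higher count was 28 with 3 of the 5 genes required and 69 with a library size reduced by haemoglobin, mitochondrial, ribosomal and antigen-receptor genes. In MASH over Chow, 133 higher and 125 lower were 313 and 421 with an offset of 1 CPM, 50 and 45 with 30 CPM, 70 and 49 at 200 UMIs, and 60 and 67 without the deepest 5% of barcodes. The higher count was 72 from the mean of barcode CPM and 53 without cycling barcodes, and the lower count 195 without T-cell-receptor UMIs. The settings without T-cell-receptor UMIs and without 2 markers rest on fewer barcodes (103 and 183 in MASH-Phe-free, 118 and 184 in MASH, 112 and 173 in Chow). A turn of sign was read for the 8 of 42 list medians that lay at least 0.2 from the median of all genes, and for the 114 of 134 gene ratios whose interval excluded 1. Among these lists, cell cycle in MASH over Chow turned, to -0.13 in Cd27-undetected barcodes and -0.0055 without cycling barcodes. Of the other 34 list medians, 18 changed sign under at least 1 alternative. Of the 114 gene ratios, each recomputed under 9 alternatives, 7 turned in 10 of 1026 values, and of the other 20, 14 changed sign. In MASH over Chow these were Pclaf (-0.032 without cycling barcodes), Mertk (0.13 without T-cell-receptor UMIs, 0.039 without the deepest barcodes), Fmnl2 (0.078 without 2 markers, 0.14 without the deepest) and Mrc1 (0.10 without 2 markers). In MASH-Phe-free over MASH they were Isg15 (0.21 without 2 markers), Il1b (-1.09 without T-cell-receptor UMIs, -0.10 without 2 markers) and Ms4a6c (0.044 without T-cell-receptor UMIs). The cause was not tested, except that Pclaf and the cell cycle list lost the barcodes that carry them.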
